A study of Mus musculus with 8 samples.

Results

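The 10 immediate early genes Fos, Fosb, Jun, Junb, Atf3, Egr1, Nr4a1, Ier2, Dusp1 and Zfp36 were followed in CD45+ immune cells from mouse skin wounds. They were chosen by name, and all 10 were among the 21755 genes of the count tables. The series holds 8 single-cell libraries, 1 from the wounds of diabetic mice and 1 from the wounds of control mice on each of days 1, 3, 5 and 7 after wounding. All animals were male C57BL/6J mice. The diabetic group had received streptozotocin at 120 mg/kg at 4 weeks of age and entered the study with a blood glucose of at least 16.5 mmol/L, and the control group had not been made diabetic. Each library pooled the wound-edge cells of 5 mice, and in all groups the tissue was digested with enzymes for 1 h at 37 °C before viable CD45+ cells were sorted. Since each condition was 1 library, wound group on a given day and the handling of that library cannot be told apart, and no test was possible on a single day.

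Immediate early genes are transcribed within minutes of a stimulus, without new protein being made first, and serum response factor and CREB are among the factors that drive them. Their messenger RNAs are short-lived. Fos, Fosb, Jun and Junb encode subunits of the AP-1 transcription factor, and Atf3 encodes a bZIP factor that pairs with them. Egr1 is a zinc finger transcription factor, Nr4a1 an orphan nuclear receptor induced by antigen receptor signalling in lymphocytes, and Ier2 a small nuclear protein. Dusp1, a phosphatase that switches off MAP kinases, and Zfp36, which binds AU-rich messenger RNAs and promotes their decay, act as brakes on the same response. These genes are also switched on by enzymatic digestion and sorting of tissue, so the levels were read by library and by cell class, to see which differences all classes of a library share.

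The promoters carry some of the sites through which these genes are known to be driven. The 250 bases before the start site are shown for 5 members, from RefSeq's GRCm38.p6 annotation, 5′ to 3′ on the strand of the gene. They are the members in which an exact match to one of 6 full-length sites was found. Capitals mark the TATA box (TATAAA) in Fos, the Egr site (GCGGGGGCG) in Fosb, Nr4a1 and Zfp36, the serum response element core, or CArG box, in Zfp36, and the cyclic AMP response element (TGACGTCA) in Dusp1. The match in Nr4a1 is on the other strand, so its capitals read as the reverse complement.
Fos, chr12:85473640-85473889, plus strand: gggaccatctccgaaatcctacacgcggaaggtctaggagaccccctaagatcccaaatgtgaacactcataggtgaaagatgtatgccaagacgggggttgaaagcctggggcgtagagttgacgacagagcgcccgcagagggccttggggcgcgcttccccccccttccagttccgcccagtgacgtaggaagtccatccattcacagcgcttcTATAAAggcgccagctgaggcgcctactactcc
Fosb, chr7:19310046-19310295, minus strand: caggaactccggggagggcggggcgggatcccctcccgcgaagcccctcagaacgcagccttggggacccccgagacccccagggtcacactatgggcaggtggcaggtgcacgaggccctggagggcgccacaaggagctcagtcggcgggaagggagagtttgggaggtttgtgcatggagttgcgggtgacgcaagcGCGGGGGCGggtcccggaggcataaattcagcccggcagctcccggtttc
Nr4a1, chr15:101266596-101266845, plus strand: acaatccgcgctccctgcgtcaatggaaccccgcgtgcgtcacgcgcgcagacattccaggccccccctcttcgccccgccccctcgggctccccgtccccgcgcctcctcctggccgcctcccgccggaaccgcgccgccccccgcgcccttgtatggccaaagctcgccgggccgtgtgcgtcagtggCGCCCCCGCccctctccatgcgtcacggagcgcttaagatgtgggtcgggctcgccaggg
Zfp36, chr7:28379229-28379478, minus strand: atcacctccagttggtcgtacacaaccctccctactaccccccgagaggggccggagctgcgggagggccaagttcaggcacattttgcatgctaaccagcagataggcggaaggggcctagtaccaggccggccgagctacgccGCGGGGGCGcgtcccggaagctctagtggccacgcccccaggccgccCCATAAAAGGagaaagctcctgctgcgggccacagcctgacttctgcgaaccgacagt
Dusp1, chr17:26508473-26508722, minus strand: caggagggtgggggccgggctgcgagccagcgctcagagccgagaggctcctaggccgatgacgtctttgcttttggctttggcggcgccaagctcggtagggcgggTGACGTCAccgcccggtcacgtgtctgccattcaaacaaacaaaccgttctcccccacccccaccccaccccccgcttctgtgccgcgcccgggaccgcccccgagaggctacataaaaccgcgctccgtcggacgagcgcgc

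Both strands were searched, and 8 of the 10 members were in the table searched. The Egr site was in 3 of those 8, against 2.57% of all 32851 promoters searched. The TATA box, in Fos at bases −33 to −28, was in 12.4% of all promoters. The CArG box of Zfp36, at −58 to −49, was in 1.47%, and the cyclic AMP response element of Dusp1, at −143 to −136, was in 1.55%. Its shorter core, TGACG, which the full element contains, was in 6 of the 8 members (Fos, Fosb, Junb, Nr4a1, Atf3 and Dusp1) and in 17.8% of all promoters. CCAAT was in Jun and Junb and in 33.8% of all promoters. TGACTCA, the AP-1 site itself, was in none of the 8 and in 4.46% of all promoters, and the consensus NF-kappaB site was in none and in 0.140%. A match is a description of the letters in this window. No measurement here bears on binding at it.

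In the GRCm38 annotation (GENCODE M21), the members lie on 8 chromosomes: Fos (chr12:85473890-85477273), Fosb (chr7:19302696-19310051), Jun (chr4:95049034-95052222), Junb (chr8:84974484-84978718), Atf3 (chr1:191170296-191218039), Egr1 (chr18:34859823-34864984), Nr4a1 (chr15:101254269-101274795), Ier2 (chr8:84661331-84662852), Dusp1 (chr17:26505590-26562128) and Zfp36 (chr7:28376784-28380253). Junb and Ier2 are on one chromosome, as are Fosb and Zfp36.

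After filtering, 35215 of 38959 barcodes were kept, from libraries of 19236522 to 33842509 UMIs. The library of the control group on day 5 stood apart, with 28.5% of its barcodes removed against 1.00 to 10.6% elsewhere, and a median of 8219 UMIs per cell against 2573 to 5219. Cells were clustered without the members, and clusters were named from markers. The 5 classes compared were neutrophil-like, monocyte-like, macrophage-like, dendritic-like and T cell-like. Ptprc, which encodes CD45, was read in every class of every library, at 435 to 1392 CPM. Of the marker genes fixed for a class, 10 of 10 were highest on average in neutrophil-like cells, 9 of 9 in monocyte-like, 10 of 10 in macrophage-like, 11 of 11 in dendritic-like and 7 of 7 in T cell-like cells. The same lists named the clusters, so these counts are a description of the classes and no independent check of them. Some sums were small: 76 diabetic and 92 control macrophage-like cells on day 1, 85 control monocyte-like cells on day 7 and 261 control neutrophil-like cells on day 5. A cluster of 3373 cells led by Gm26917 and Malat1 was left unnamed. Levels are given in CPM, the UMIs of the gene per 1000000 UMIs of the class in that library, and values for days 1, 3, 5 and 7 are given in that order.

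Every member was read in every class of every library. The classes differed in which members stood highest. Among the 5 classes compared, in all 8 libraries, Fos, Fosb, Jun and Atf3 were highest in macrophage-like cells, Junb, Dusp1 and Zfp36 in neutrophil-like cells, and Nr4a1 in T cell-like cells. For these 8 genes the top class was the same in both wound groups and on all days. Egr1 was highest in macrophage-like cells in 5 libraries and in neutrophil-like cells in 3, and Ier2 in T cell-like cells in 5, dendritic-like cells in 2 and neutrophil-like cells in 1.

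**Figure D1:**
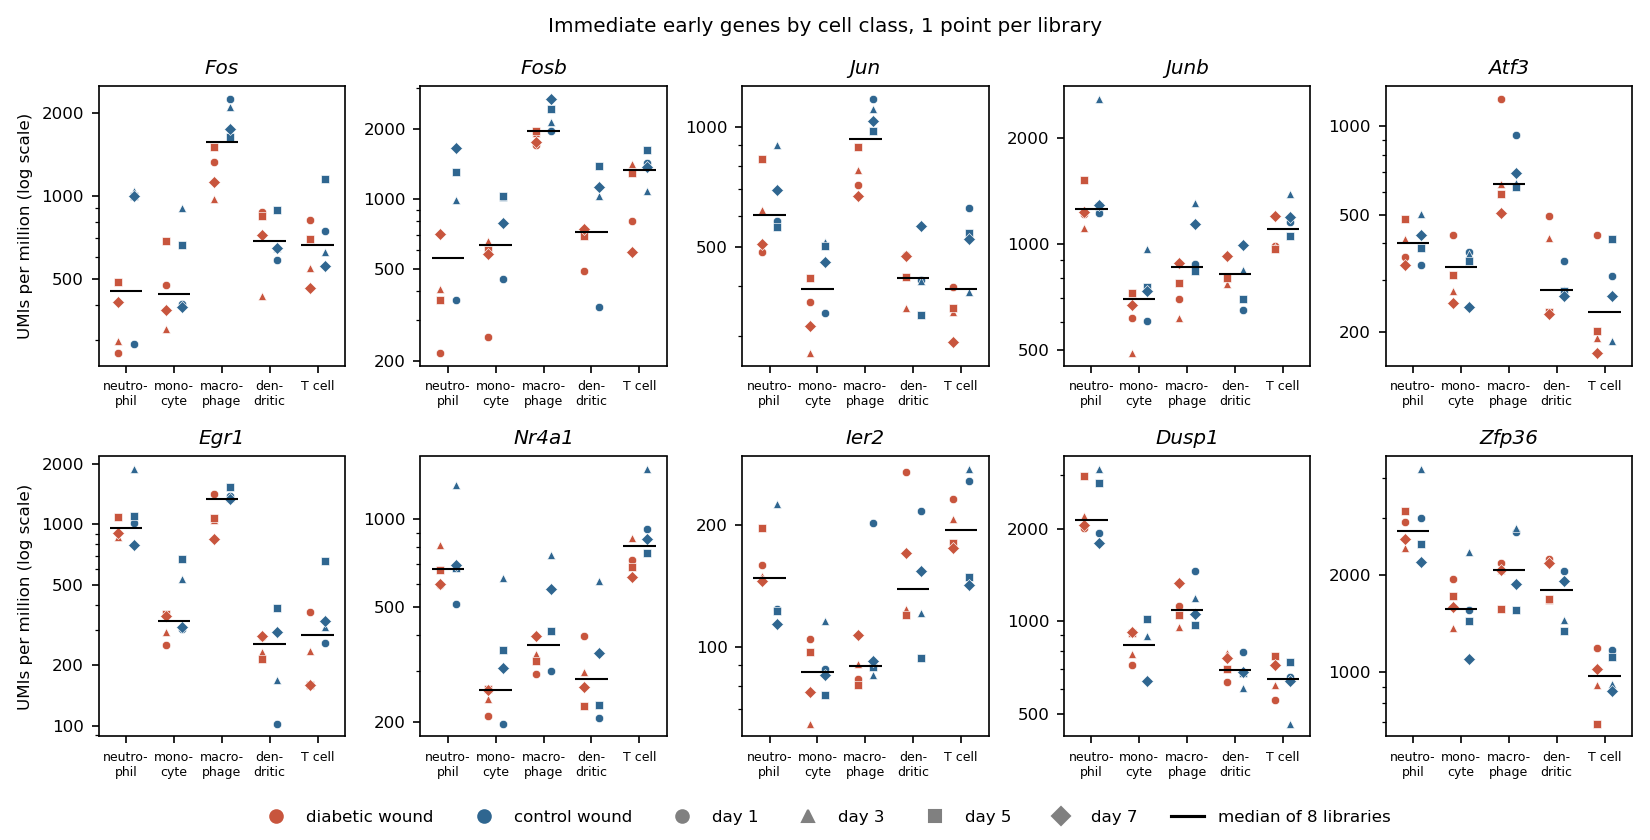
CPM of each member on a log scale in the 5 cell classes, with 1 point per library, coloured by wound group and shaped by day, and a line at the median of 8 libraries. Fos, Fosb, Jun and Atf3 have their highest median in macrophage-like cells (1571, 1965, 933 and 639 CPM), and Dusp1 in neutrophil-like cells (2126 CPM), where its points lie above those of every other class.

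Fos, the founding AP-1 subunit, was read in macrophage-like cells at 1323, 974, 1506 and 1118 CPM in the diabetic group and at 2254, 2103, 1637 and 1745 CPM in the control group. In neutrophil-like cells its levels were 268, 297, 485 and 412 CPM in the diabetic group and 289.8, 1038, 998 and 995 CPM in the control group. The control libraries of days 3, 5 and 7 were high and stood above all diabetic libraries, while the control library of day 1 lay among them. Monocyte-like cells held 329 to 906 CPM, dendritic-like cells 431 to 886 CPM and T cell-like cells 464 to 1147 CPM. These 3 classes overlapped each other and the neutrophil-like cells, so only the place of macrophage-like cells at the top was kept in every library.

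Fosb, the AP-1 subunit most like Fos, was lower in the diabetic library of the same day in most classes. Its levels in neutrophil-like cells were 217, 408, 367 and 707 CPM in the diabetic group and 365, 991, 1304 and 1654 CPM in the control group. Within each day the diabetic library was the lower, and the highest diabetic library lay below the control libraries of days 3, 5 and 7. In monocyte-like cells Fosb was at 253, 662, 600.4 and 582 CPM in the diabetic group and 449.9, 1015, 1027 and 790.2 CPM in the control group. Macrophage-like cells held 1706, 1920.3, 1961 and 1756 CPM in the diabetic group and 1969.7, 2158, 2452 and 2707 CPM in the control group. There the lowest control library (1969.7 CPM) was narrowly above the highest diabetic one (1961 CPM), so the groups did not overlap. No share of all genes is given for this order. Dendritic-like cells had 488, 709, 692 and 739.9 CPM in the diabetic group and 344, 1029.9, 1387 and 1127 CPM in the control group, and T cell-like cells had 803, 1416, 1291 and 591 CPM and 1432, 1085, 1627 and 1371 CPM. In both of these classes the groups overlapped.

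Jun, the partner of the Fos proteins in AP-1, was at 716, 779.7, 889.7 and 670.0 CPM in the diabetic and 1177, 1109, 977 and 1035 CPM in the control macrophage-like cells. All control libraries were above all diabetic libraries in this class, as for Fos and Fosb, while for the other members the groups overlapped there. No share of all genes is given for this order. Neutrophil-like cells came next, at 486 to 904 CPM, and were above monocyte-like and dendritic-like cells in 8 of 8 libraries and above T cell-like cells in 7. Monocyte-like (272 to 514 CPM), dendritic-like (338 to 564 CPM) and T cell-like cells (289.5 to 627 CPM) had no fixed order. Junb, an AP-1 subunit that can restrain Jun, was at 1216, 1109, 1525 and 1232 CPM in the diabetic and 1223, 2593, 1283 and 1291 CPM in the control neutrophil-like cells. A single library stood out there, the control one of day 3, and the other 7 lay between 1109 and 1525 CPM. T cell-like cells were the next for Junb, at 967 to 1389 CPM, then macrophage-like (613 to 1311 CPM), dendritic-like (649.7 to 991 CPM) and monocyte-like cells (489 to 967 CPM), which overlapped.

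Atf3, a stress-induced bZIP factor, was at 1239.5, 638, 589 and 508 CPM in the diabetic and 934, 639, 620.1 and 692 CPM in the control macrophage-like cells, and its day 1 libraries were the highest in both groups. Those day 1 values rest on the 76 and 92 cells named above. The class did not overlap any other for Atf3. Neutrophil-like cells held 337 to 504 CPM, monocyte-like cells 244 to 428 CPM, dendritic-like cells 230.2 to 497 CPM and T cell-like cells 169.9 to 427 CPM, each overlapping the next.

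Egr1, a zinc finger factor, was read at 1412, 1048, 1073 and 850.3 CPM in the diabetic and 1389, 1348, 1528 and 1332 CPM in the control macrophage-like cells, and at 909, 863, 1094 and 906 CPM and 1022, 1881, 1096 and 793 CPM in neutrophil-like cells. The ranges of these 2 classes overlapped, and both lay above the whole range of the others, which was 252 to 674 CPM in monocyte-like, 102 to 384 CPM in dendritic-like and 159 to 659 CPM in T cell-like cells. Nr4a1 in T cell-like cells was at 726, 863, 687 and 633 CPM in the diabetic and 928, 1487, 765 and 854 CPM in the control group. Neutrophil-like cells followed at 596, 817, 667 and 597 CPM and 513, 1312, 680.2 and 698 CPM, below T cell-like cells in every library though with overlapping ranges. Macrophage-like (294 to 754 CPM), dendritic-like (208 to 615 CPM) and monocyte-like cells (198 to 629 CPM) came last. In each of the 5 classes the highest of 8 libraries for Nr4a1 was the control library of day 3. Ier2 was at 143 to 275 CPM in T cell-like, 94.1 to 271 CPM in dendritic-like, 114 to 226 CPM in neutrophil-like, 80.5 to 203 CPM in macrophage-like and 64.6 to 116 CPM in monocyte-like cells, and these ranges overlapped except between T cell-like and monocyte-like cells.

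The feedback genes were highest in neutrophil-like cells. Dusp1 was at 2005, 2193, 2972 and 2059.6 CPM in the diabetic and 1934, 3122, 2819.7 and 1801 CPM in the control neutrophil-like cells. Its lowest neutrophil-like library was above the highest library of each other class, where the ranges were 960.0 to 1455 CPM in macrophage-like, 637 to 1019 CPM in monocyte-like, 606 to 795 CPM in dendritic-like and 464 to 772 CPM in T cell-like cells. Zfp36 was at 2918, 2429, 3165 and 2577 CPM in the diabetic and 3011, 4258, 2497 and 2194 CPM in the control neutrophil-like cells. T cell-like cells were its lowest class in all 8 libraries, at 691 to 1191 CPM, with macrophage-like (1552 to 2807 CPM), dendritic-like (1340.1 to 2242 CPM) and monocyte-like cells (1094 to 2353 CPM) between.

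The class differences were tested in 1 edgeR model of the 40 sums, with library as a term, each class against macrophage-like cells, and p-values were adjusted over all genes tested. Fold changes are log2 with TMM scaling. In neutrophil-like cells 8 of 10 members passed, against 63.9% of all 11413 genes, so the number that passed was not far from the background and the directions carry the description. Dusp1 (1.82 ± 0.15, SE, adjusted p = 1.28e-12), Nr4a1 (1.56), Junb (1.46), Ier2 (1.34), Zfp36 (1.24) and Egr1 (0.61 ± 0.23, SE, adjusted p = 0.0194) were higher, and Fos (−0.82 ± 0.16, SE, adjusted p = 3.40e-05) and Fosb (−1.01 ± 0.18, SE, adjusted p = 6.13e-06) were lower. Jun (0.28 ± 0.16, SE, adjusted p = 0.119) and Atf3 (−0.03 ± 0.15, SE, adjusted p = 0.862) did not pass. With scaling by library size alone Egr1 was at −0.22, Jun at −0.49 and Atf3 at −0.77, of which Jun and Atf3 passed as lower, and the median over all genes was −0.805 against −0.133 with TMM. With that scaling 19.2% of the genes called were higher, against 45.1% with TMM. The lower Fos and Fosb and the higher Dusp1, Nr4a1, Junb, Ier2 and Zfp36 kept their direction and passed under both scalings.

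Against macrophage-like cells, 5 members were lower in monocyte-like cells and none was higher (background 18.7%): Fosb (−1.58 ± 0.18, SE, adjusted p = 1.83e-08), Egr1 (−1.59), Fos (−1.47), Jun (−1.06) and Atf3 (−0.99). Nr4a1 (−0.37), Dusp1 (−0.34), Zfp36 (−0.22), Junb (−0.21) and Ier2 (−0.10) did not pass. The count was 9 with library size alone, all lower, against 14.6% of genes. In dendritic-like cells Ier2 was higher (0.52 ± 0.17, SE, adjusted p = 0.0121) and 7 members were lower, from Egr1 (−2.39 ± 0.24, SE, adjusted p = 1.06e-10) through Fosb, Atf3, Fos, Jun and Dusp1 to Nr4a1 (−0.48 ± 0.16, SE, adjusted p = 0.0110), while Zfp36 (−0.24) and Junb (−0.14) did not pass, with 45.1% of all genes past the threshold. In T cell-like cells Nr4a1 (0.74 ± 0.16, SE, adjusted p = 9.04e-05) and Ier2 (0.66 ± 0.17, SE, adjusted p = 0.00123) were higher and 7 were lower, Egr1 (−2.37), Atf3 (−1.71), Fos (−1.45), Jun (−1.37), Zfp36 (−1.35), Dusp1 (−1.10) and Fosb (−1.09), with 60.4% of all genes past the threshold. With library size alone 64.0% of the genes called in T cell-like cells were higher, against 48.0% with TMM, and the median of all genes was 0.27 against −0.03. Junb did not pass with TMM in T cell-like cells (0.06 ± 0.15, SE, adjusted p = 0.764), and was at 0.35 (adjusted p = 0.00674) with library size alone.

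Mast cell-like cells, of which there were 23 to 25 in the libraries of days 1 and 3 and too few later, held the highest levels of Fosb, Jun and Egr1. Fosb was at 5378 and 3437 CPM in the diabetic and 5082 and 3741 CPM in the control libraries of days 1 and 3, Jun at 2029.8 to 4091 CPM, and Egr1 at 2316 to 3381 CPM. All 4 values of each gene were above the highest value of the 5 main classes, where Fosb reached 2707 CPM. In NK cell-like cells of 6 libraries Ier2 was at 218 to 494 CPM and Junb at 991 to 1859.6 CPM. In the unnamed cluster Fos was at 848 to 1723 CPM and Fosb at 1118 to 1993 CPM.

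The share of cells in which a member was found was taken with each cell thinned to 1000 UMIs, leaving out shallower cells. A UMI of Dusp1 was found in 72.3 to 86.9% of neutrophil-like cells by library and of Zfp36 in 75.6 to 88.1%, and a UMI of Fosb in 50 to 79.7% of macrophage-like cells. Fos was found in 16.2 to 42.0% of neutrophil-like cells, at 18.4% (95% interval 16.9 to 20) in the diabetic and 42.0% (95% interval 39.7 to 44.3) in the control library of day 3. Nr4a1 was found in 18.3% (95% interval 15.6 to 21.2) of diabetic and 40.9% (95% interval 36.8 to 45.1) of control monocyte-like cells on that day. At least 5 of the 10 members were found in 36.7% of diabetic and 67.6% of control neutrophil-like cells of day 3, in 14.5% and 37.1% of monocyte-like cells, and in 20.9% and 29.0% of dendritic-like cells. The thinning left out 138 diabetic and 126 control neutrophil-like cells and 45 and 19 monocyte-like cells of day 3, and without it the share with Fos was 31.4% and 57.1% in neutrophil-like cells and the share with Nr4a1 60.3% and 82.9% in monocyte-like cells. The intervals are exact binomial and cover counting error only. Without thinning, the median share over members, classes and libraries was 69.6%. No class lacked these genes, so a share due to RNA free in the droplets or wells could not be read from one.

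The levels were then split into a part that the class explains, a part that all classes of a library share, and the rest, on log2(CPM + 10) over the 40 sums. Class held most of the variation for every member, from 53.5% for Fosb to 90.1% for Dusp1. Over all 3314 genes with a mean of at least 50 CPM the median was 71.8% for class, 10.1% for library and 16.4% for the rest. The part shared by all classes of a library was above that median for 7 members: Fosb (28.9%), Nr4a1 (25.8%), Junb (23.6%), Fos (20.5%), Atf3 (15.9%), Ier2 (15.3%) and Jun (12.5%). Zfp36 (9.74%), Egr1 (7.42%) and Dusp1 (2.36%) were below it. The quartiles of all genes for the library part were 5.77% and 17.4%. Fosb, Nr4a1, Junb and Fos lay above the upper one, Dusp1 below the lower one, and the other members between them. For Fosb the shared part went with day (15.5%) and wound group (12.1%), leaving 1.24% to wound by day. With 1 library per condition, wound by day cannot be told apart from what is particular to a single library. For Junb most of the shared part, 13.4%, was wound by day. For Nr4a1 the parts were 12.9% day, 5.26% wound group and 7.71% wound by day. For Jun wound group took 8.86%, and for Atf3 and Ier2 day took 11.7% and 10.4%. The part that was neither class nor library, which is where a difference in 1 class alone would lie, was largest for Ier2 (26.6%) and Fos (22.3%) and smallest for Nr4a1 (6.74%).

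**Figure D2:**
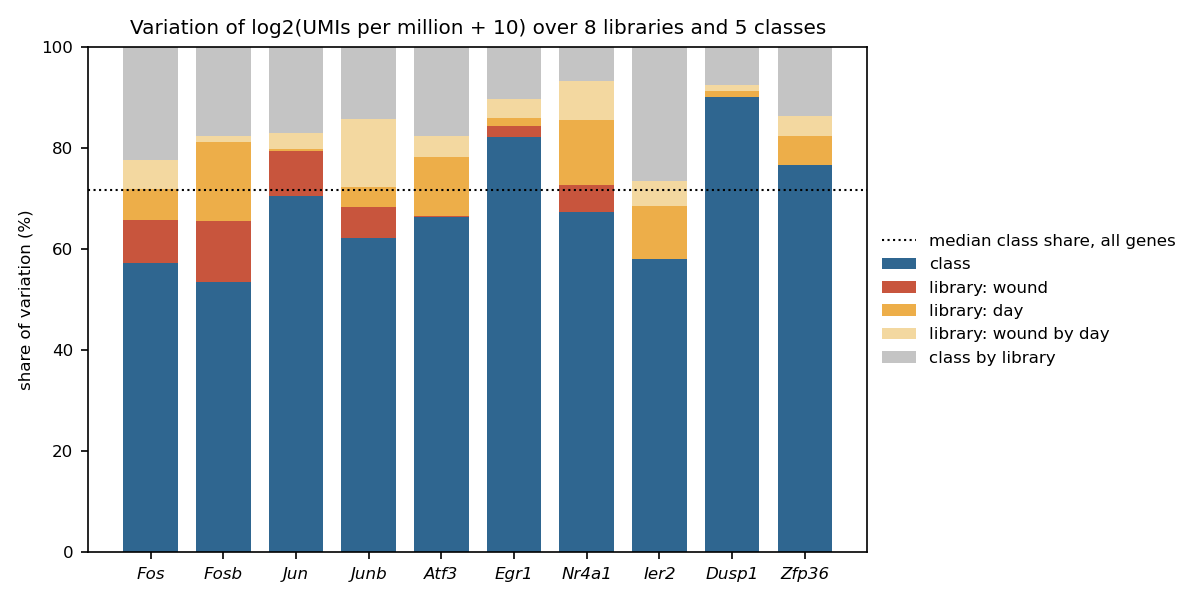
Share in percent of the variation of each member's log2(CPM + 10) over 8 libraries and 5 classes, as stacked bars for class, the library part split into wound, day and wound by day, and the remaining class by library part. Class takes 90.1% for Dusp1 and 53.5% for Fosb, and the dotted line marks the median class share of all genes, 71.8%.

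Next, the diabetic library was set against the control library of the same day within each class, which gave 50 ratios a day. These ratios compare 1 library with 1, and their 95% intervals are exact Poisson intervals that cover counting error only. On day 1 the members lay on both sides, with 23 of 50 ratios below 1 and a median log2 ratio of 0.03, where 46.9% of the 16570 ratios of all 3314 genes with a mean of at least 50 CPM were below 1. On day 3, 41 of 50 were below 1 (46.1% of all ratios), 38 of them with an interval that left out 1 (25.8% of all ratios), and the median was −0.50. On day 5 there were 32 below 1 (median −0.12), against 50.6% of all ratios, and on day 7 there were 31 (median −0.17), against 52.7%. By gene, over 20 ratios of 4 days and 5 classes, Fosb was lower in the diabetic library in 18, Nr4a1 in 17, Jun in 16, Fos and Junb in 15 and Egr1 in 14. Atf3 was lower in 11, and Ier2, Dusp1 and Zfp36 in 7 each.

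**Figure D3:**
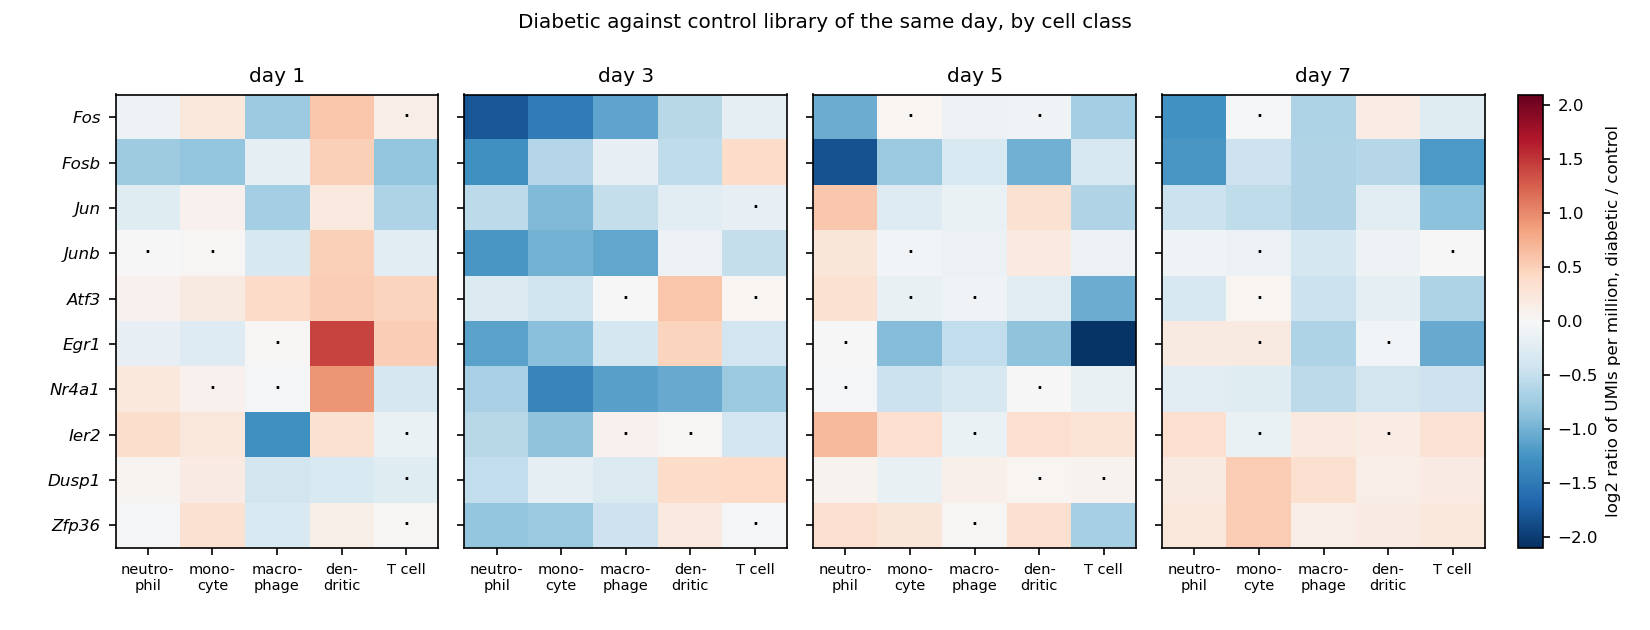
Log2 ratio of CPM, diabetic over control library, for each member in each of the 5 classes on days 1, 3, 5 and 7, with blue for lower in the diabetic library, red for higher and a dot where the counting interval includes a ratio of 1. Blue fills 41 of 50 cells on day 3 and 23 of 50 on day 1.

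Some members lay on 1 side in all 5 classes of a day. On day 1 none was lower in all 5, against 3.86% of the 3314 genes, and Atf3 was higher in all 5 (7.66% of genes), with ratios from 1.06 in neutrophil-like to 1.42 in dendritic-like cells. On day 3 Fos, Jun, Junb and Nr4a1 were lower in all 5, against 15.2% of genes, and none was higher in all 5, against 22.5%. On day 5 Fosb, Egr1 and Nr4a1 were lower in all 5 (14.4%) and none was higher in all 5 (11.5%). On day 7 Fosb, Jun and Nr4a1 were lower in all 5 (16.1%), and Dusp1 and Zfp36 were higher in all 5 (11.2%). The 6 fibroblast-like markers (Col1a1, Col1a2, Col3a1, Dcn, Bgn and Fstl1), summed, were also lower in all 5 classes of the diabetic library on days 3, 5 and 7. On day 7 they stood at 259 to 427 CPM over the 5 classes of the diabetic and 471 to 802 CPM over those of the control library, against 2.70 to 112 CPM on the other days, and their part in the members' ratios was not tested. The members lower in all 5 classes, 4, 3 and 3 of 10 on days 3, 5 and 7, were a larger share than that of all genes, while on day 1 both counts were near the background. Nr4a1 was among them on days 3, 5 and 7. These counts go by side alone, and the interval of the ratio included 1 for Jun in T cell-like cells on day 3 and, on day 5, for Egr1 in neutrophil-like and Nr4a1 in neutrophil-like and dendritic-like cells.

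Day 3 held the widest gap over the 5 classes together and in neutrophil-like and monocyte-like cells, where the members' median log2 ratio was −0.75 and −0.86. In macrophage-like cells the median was −0.40 on day 3 and −0.49 on day 7, in T cell-like cells −0.18 on day 3 and −0.48 on day 5, and in dendritic-like cells −0.05 on day 3 and 0.51 on day 1. On day 3 in neutrophil-like cells all 10 members were lower in the diabetic library, with a ratio of 0.286 (95% interval 0.272 to 0.302) for Fos from 2044 and 4924 UMIs, 0.412 (95% interval 0.393 to 0.431) for Fosb, 0.428 (95% interval 0.416 to 0.440) for Junb and 0.459 (95% interval 0.444 to 0.474) for Egr1. In monocyte-like cells all 10 were also lower, with ratios of 0.363 for Fos, 0.381 for Nr4a1 and 0.505 for Junb. In macrophage-like cells 9 were lower, led by Nr4a1 (0.455), Fos (0.463) and Junb (0.468). Only 5 of 10 were lower in dendritic-like and 7 in T cell-like cells. Egr1 was higher in diabetic dendritic-like cells (1.38, 95% interval 1.23 to 1.55) and Fosb in diabetic T cell-like cells (1.30, 95% interval 1.21 to 1.41). In T cell-like cells the summed macrophage-like markers stood at 21.6% of their macrophage-like level in the diabetic and 8.50% in the control library. In dendritic-like cells they stood at 9.53% and 6.54%, and their part in these ratios was not tested. Nr4a1 was at 0.622 in neutrophil-like, 0.483 in dendritic-like and 0.580 in T cell-like cells, so its 5 ratios lay between 0.381 and 0.622.

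The control library of day 3 was itself high in some classes. Among the 8 libraries, the control library of day 3 was the highest for 9 of 10 members in neutrophil-like cells, where it was the highest for 12.3% of all genes. It was the highest for 6 members in monocyte-like cells (22.8% of genes), 3 in macrophage-like (11.5%), 1 in dendritic-like (10.3%) and 3 in T cell-like cells (14.2%). The 10 members together took 1.68% of the UMIs of neutrophil-like cells in that library, against 0.913 to 1.18% in the others. In dendritic-like cells they took 0.617%, within the 0.573 to 0.708% of the other libraries. The clusters within a class were mixed differently in the 2 libraries of day 3. The cluster led by Cxcr2 and Lrg1 made up 40.7% of diabetic and 68.8% of control neutrophil-like cells, and the cluster led by Ngp and Retnlg 14.6% and 2.05%. Within single clusters, Fos, Junb and Nr4a1 were lower in the diabetic library in 15 of 15 clusters. Jun and Egr1 were lower in 14, Fosb and Ier2 in 13, Zfp36 in 12, Dusp1 in 11 and Atf3 in 10. No share of all genes is given for these counts. In the Cxcr2 and Lrg1 cluster Fos was at 349.6 CPM in the diabetic and 1039.6 CPM in the control library.

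**Figure D4:**
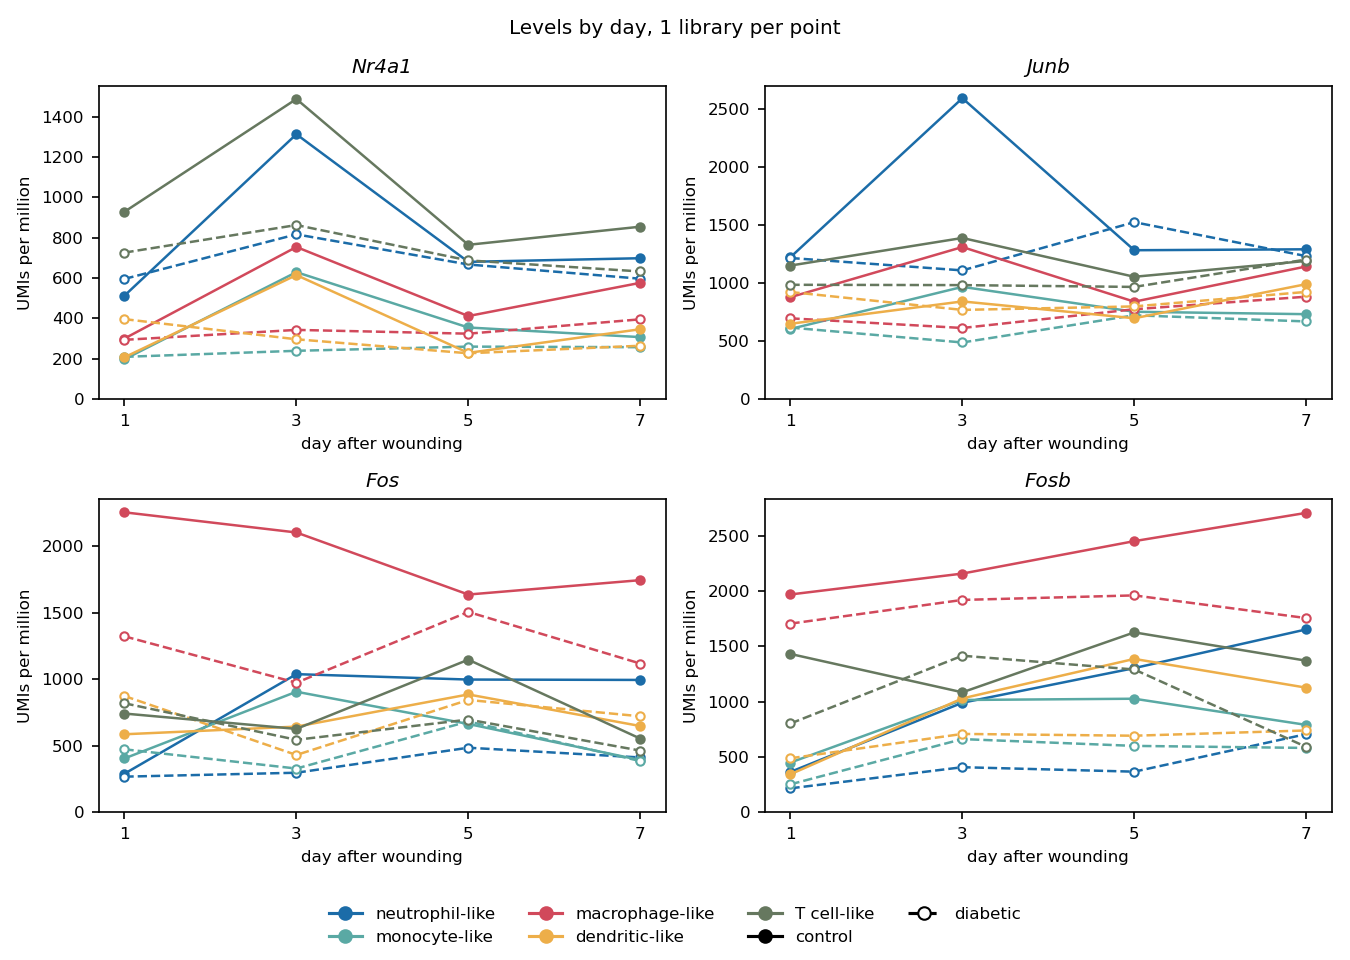
CPM of Nr4a1, Junb, Fos and Fosb by day after wounding in the 5 classes, with solid lines and filled points for control and dashed lines and open points for diabetic libraries, 1 library per point and no error bars. Nr4a1 peaks in the control library of day 3 in all 5 classes, up to 1487 CPM in T cell-like cells, and Fosb in control neutrophil-like cells goes from 365 CPM on day 1 to 1654 CPM on day 7.

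On days 5 and 7 Fosb was lower in all 5 classes, as was Nr4a1. The Fosb day 5 ratio was 0.282 (95% interval 0.263 to 0.302) in neutrophil-like cells, 0.499 in dendritic-like, 0.585 in monocyte-like, 0.794 in T cell-like and 0.80 in macrophage-like cells. Its day 7 ratio was 0.427 (95% interval 0.406 to 0.449) in neutrophil-like cells, 0.431 in T cell-like, 0.649 in macrophage-like, 0.657 in dendritic-like and 0.736 in monocyte-like cells. In the same neutrophil-like cells the 10 macrophage-like markers, summed, stood at 6.81% of their macrophage-like level in the diabetic and 28.4% in the control library on day 5, at 38.4% and 51.1% on day 7, and at 12.9% and 10.0% on day 3. On day 5 the same markers stood at 23.6% in diabetic and 44.5% in control monocyte-like cells. They stood at 4.36% and 18.1% in dendritic-like and at 4.95% and 36.0% in T cell-like cells. On day 7 they stood at 36.3% and 40.3%, 17.9% and 25.1%, and 17.3% and 27.9% in these classes. The summed heat-shock genes in neutrophil-like cells were at 1649 and 3713 CPM on day 5 and 3695 and 6538 CPM on day 7. The part of the markers or of the heat-shock genes in the Fosb ratios was not tested. Within clusters Fosb was lower in 11 of 11 on each of these days, and Jun in 11 of 11 on day 7. On day 5 Fos, Egr1 and Nr4a1 were lower in 8, Atf3 in 7, Jun, Junb, Dusp1 and Zfp36 in 6 and Ier2 in 5. On day 7 Junb, Nr4a1 and Atf3 were lower in 9, Egr1 in 7 and Fos in 6. Zfp36 was lower in 3, Ier2 in 2 and Dusp1 in 1. No share of all genes is given for these counts. The Egr1 ratio on day 5 went from 0.999 in neutrophil-like cells to 0.241 (95% interval 0.212 to 0.274) in T cell-like cells. In those T cell-like cells the macrophage-like markers stood at 4.95% in the diabetic and 36.0% in the control library. Their part in the Egr1 ratio was not tested. The feedback genes lay the other way on day 7. Dusp1 ratios were 1.14, 1.45, 1.26, 1.11 and 1.13, and Zfp36 ratios were 1.17, 1.46, 1.11, 1.13 and 1.16, in neutrophil-like, monocyte-like, macrophage-like, dendritic-like and T cell-like cells.

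Levels over all cells of a library mixed these differences with the makeup of the library. For Egr1 on day 7, the diabetic library was at 561 CPM and the control library at 1024 CPM over all cells, a ratio of 0.547. Within classes the ratio was 1.14 in neutrophil-like, 1.13 in monocyte-like, 0.639 in macrophage-like, 0.959 in dendritic-like and 0.481 in T cell-like cells. Macrophage-like cells, in which Egr1 was highest in the control library and next to neutrophil-like cells in the diabetic one, numbered 934 of 3656 kept cells in the diabetic and 2286 of 4653 in the control library.

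Over the 4 days, with day as a block, edgeR found no member past the threshold for diabetic against control in any of the 5 classes. The background was as low, at 0.0186% of genes in neutrophil-like, 0.0192% in monocyte-like, 0.0281% in macrophage-like, 0.01% in dendritic-like and 0.0% in T cell-like cells. At an unadjusted p under 0.05 there were 2, 4, 6, 1 and 2 members in these classes, against 1021 of 10779, 833 of 10412, 991 of 10693, 624 of 9961 and 266 of 8924 genes. All 10 members had a negative log2 difference in macrophage-like cells, 9 in T cell-like, 8 in monocyte-like, 6 in neutrophil-like and 4 in dendritic-like cells. Their median was −0.34, −0.33, −0.27, −0.03 and 0.07 in that order, where the median of all genes was within 0.01 of 0. With library size alone the median of all genes was −0.14 in neutrophil-like cells, and 9 members were negative there. Fosb had a log2 difference of −1.12 ± 0.23 (SE, adjusted p = 0.311) in neutrophil-like, −0.65 ± 0.11 (SE, adjusted p = 0.148) in monocyte-like, −0.32 ± 0.11 (SE, adjusted p = 0.407) in macrophage-like, −0.45 ± 0.20 (SE, adjusted p = 0.790) in dendritic-like and −0.54 ± 0.26 (SE, adjusted p = 0.999) in T cell-like cells. For Fos the difference was −0.90 in neutrophil-like and −0.65 ± 0.15 (SE, adjusted p = 0.190) in macrophage-like cells. It was −0.28 in monocyte-like, −0.002 in dendritic-like and −0.30 in T cell-like cells. Nr4a1 was at −0.48, −0.53 and −0.47 in monocyte-like, macrophage-like and T cell-like cells, and at −0.03 and −0.18 in neutrophil-like and dendritic-like cells. Over the 5 classes the difference went from −0.81 to 0.17 for Egr1, −0.62 to −0.01 for Jun, −0.47 to 0.10 for Junb, −0.35 to 0.14 for Atf3, −0.14 to 0.34 for Ier2, −0.04 to 0.11 for Dusp1 and −0.16 to 0.19 for Zfp36, and in no class did one of these 7 pass.

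DESeq2 on the same sums called Fosb lower in diabetic neutrophil-like cells (log2 difference −1.13, adjusted p = 2.88e-05) and monocyte-like cells (−0.64, adjusted p = 0.000196), and Fos (−0.65, adjusted p = 0.0317) and Jun (−0.48, adjusted p = 0.0382) lower in macrophage-like cells. With edgeR and without the libraries of day 5, Fos passed in macrophage-like cells (−0.83, adjusted p = 0.0390), as did 0.124% of genes. DESeq2 called 1.18% of genes in neutrophil-like, 1.66% in monocyte-like, 1.22% in macrophage-like, 0.242% in dendritic-like and 0.0% in T cell-like cells. The calls thus differed between the tools. Whether the wound difference itself differed between classes was asked with an interaction term. What all classes of a library share lies outside that term. No member passed, against 0.0165% of 12142 genes, and Fos had the smallest unadjusted value (0.0132, adjusted p = 1.00 with edgeR). In simulated data the term was called for 24.2% of genes given a log2 wound difference of 1 in neutrophil-like cells alone. At a difference of 2 it was called for 79.8%. A class difference of the smaller size would thus mostly be missed.

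The slope over days passed for 4 members in neutrophil-like cells, against 40.8% of genes. Fosb rose by 0.14 log2 units a day (adjusted p = 0.0359), while Zfp36 (−0.22 ± 0.07, SE, adjusted p = 0.0230), Egr1 (−0.20 ± 0.07, SE, adjusted p = 0.0377) and Ier2 (−0.19 ± 0.06, SE, adjusted p = 0.0290) fell. Junb (−0.17), Nr4a1 (−0.16), Dusp1 (−0.15), Atf3 (−0.14), Jun (−0.14) and Fos (0.03) did not pass. With library size alone the calls were Fosb (0.29, adjusted p = 0.000927) and Fos (0.18, adjusted p = 0.0342), both rising, while Zfp36 (−0.06), Egr1 (−0.04) and Ier2 (−0.03) did not pass. The median slope of all genes was 0.17 with library size alone and 0.01 with TMM, and 91.1% of the genes called rose, against 52.1% with TMM. No member passed without the libraries of day 1 or without those of day 7. In these settings 5.59% and 0.86% of genes passed. None passed with cells named singly either, against 8.79% of genes, while 8 did with DESeq2, against 33.6% of genes, and 8 without the libraries of day 5, against 43.8%. In the other classes none passed, with 1.33% of genes called in monocyte-like, 0.982% in macrophage-like, 0.367% in dendritic-like and 0.0468% in T cell-like cells. At an unadjusted p under 0.05 there were 1, 1, 2 and 1 members in these classes, against 1518 of 9983, 1122 of 10283, 1130 of 9537 and 640 of 8539 genes.

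The neutrophil-like cells of late days were another mix of clusters. The cluster led by Ighg2b and Igkc was 2.05% of them in the diabetic and 1.78% in the control library of day 1, and 52.2% and 86.1% on day 7. Within clusters the Fosb slope was 0.12 in the one led by Cxcr2 and Lrg1, −0.01 in the one led by Il23a and Il1a and 0.04 in the one led by Ighg2b and Igkc. The 10 macrophage-like markers, summed, stood in neutrophil-like cells at 2.08, 12.9, 6.81 and 38.4% of their level in macrophage-like cells of the same library in the diabetic group and at 3.60, 10.0, 28.4 and 51.1% in the control group. Beside them, Fosb in neutrophil-like cells was at 12.7, 21.2, 18.7 and 40.2% of its macrophage-like level in the diabetic and 18.5, 45.9, 53.2 and 61.1% in the control group. Fos was at 20.2, 30.5, 32.2 and 36.9% and 12.9, 49.4, 61.0 and 57.0%. The summed heat-shock genes in the same cells were at 989, 2274, 1649 and 3695 CPM in the diabetic and 1046, 2556, 3713 and 6538 CPM in the control group. Fosb stood above the marker percentage in 8 of 8 libraries and Fos in 7. The part of the macrophage-like markers, or of the heat-shock genes, in the slope was not tested.

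**Figure D5:**
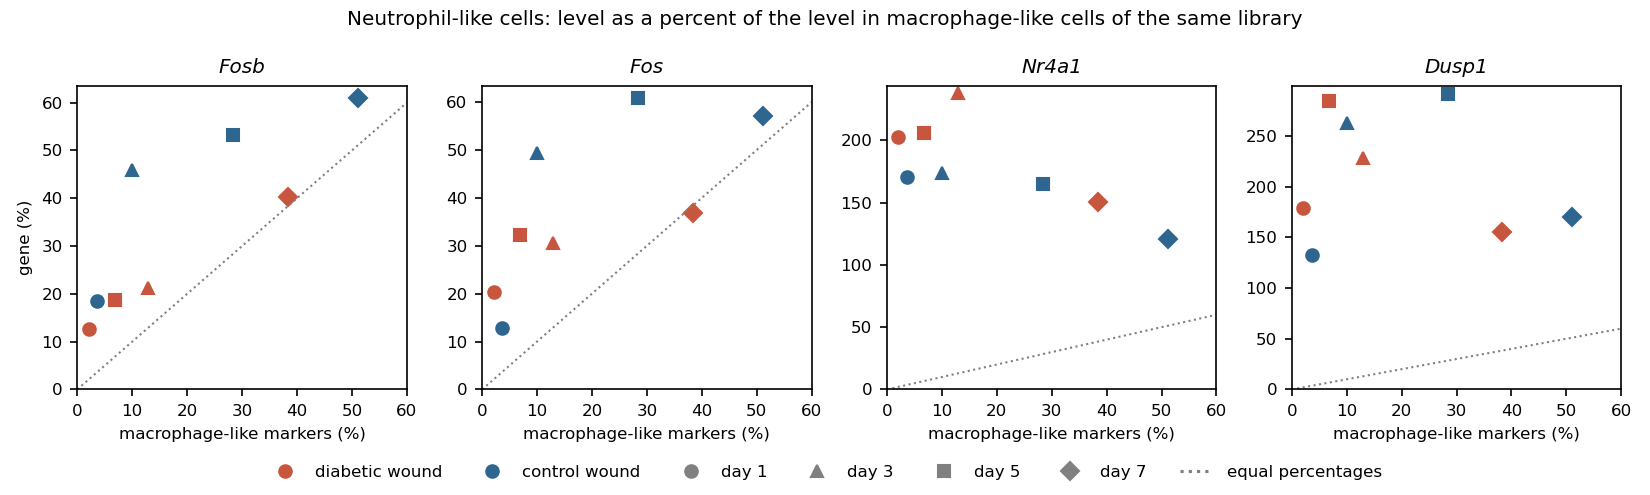
Levels of Fosb, Fos, Nr4a1 and Dusp1 in neutrophil-like cells as a percent of the level in macrophage-like cells of the same library (vertical axis) against the same percent for the summed macrophage-like markers (horizontal axis), 1 point per library, coloured by wound group and shaped by day. Fosb goes from 12.7% to 61.1% as the markers go from 2.08% to 51.1%, and Dusp1 lies above 100% in all libraries.

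Members went together only in part. Over the 40 sums, after the mean of each class was taken away, 39 of 45 pairs of members had a correlation above 0, with a median Pearson r of 0.34. The highest was Junb with Nr4a1 (r = 0.74) and the lowest Fosb with Ier2 (r = −0.33). These sums share libraries and classes, so the values are a description. Among 3304 other genes with a mean of at least 50 CPM, those most like the summed members over the 40 sums were Mylip (r = 0.82), Napa (0.77), Klf2 (0.75), Cd300ld (0.73) and Sde2 (0.70). After the class means were taken away they were Rsrp1 (0.70), Per1 (0.69), Fosl2 (0.66), Sik1 (0.65) and Tob1 (0.64).

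A list of 28 other early response genes gave the wider program. Against macrophage-like cells, 22 of 28 were higher and 3 lower in neutrophil-like cells, where 63.9% of all genes passed. Their median log2 difference was 1.2, and the median of all genes was −0.13. With library size alone 15 were higher and 6 lower, with a median of 0.43. The largest were Btg2, an antiproliferative gene (2.83), Plk3, a stress kinase (2.68), and Nfkbiz, a nuclear IkappaB protein (2.56), and Klf4 (−2.0), Myc (−0.82) and Nr4a2 (−0.66) were lower. In dendritic-like and T cell-like cells 5 were higher and 17 lower in each, where 45.1% and 60.4% of all genes passed. With library size alone 9 were higher and 14 lower in T cell-like cells. Nr4a3, the close relative of Nr4a1, was higher in both (2.57 and 1.64), at 1195 to 1752 CPM in dendritic-like cells against 178 to 311 CPM in macrophage-like cells, while Nr4a1 itself was lower in dendritic-like cells (−0.48). Dusp2 and Dusp5, phosphatases of the same family as Dusp1, were higher in both (0.64 and 0.56 in dendritic-like, 0.92 and 0.48 in T cell-like cells), where Dusp1 was lower (−0.74 and −1.10). In monocyte-like cells 2 were higher, Plk2 and Sgk1, and 7 lower, where 18.7% of all genes passed. Between wound groups 0 of 28 passed in any of the 5 classes with edgeR, and the median log2 difference was 0.17, 0.01, −0.02, 0.07 and −0.18 in neutrophil-like, monocyte-like, macrophage-like, dendritic-like and T cell-like cells. Over days, 15 fell and 1 rose in neutrophil-like cells, where 40.8% of all genes passed. Nfkbiz (−0.39 a day) and Plk3 (−0.38) were at one end and Klf4 (0.37) at the other, and none passed in the other classes. With library size alone 4 fell in neutrophil-like cells, Nfkbiz and Plk3 among them, and 5 rose, Klf4 among them, against 50.8% of all genes.

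Heat-shock genes, which rise with warmth and with unfolded protein, were read beside the members as 11 genes. None of them passed between wound groups with edgeR. The log2 difference was negative for 11 of 11 in neutrophil-like, monocyte-like, dendritic-like and T cell-like cells and for 9 in macrophage-like cells, with medians of −0.54, −0.42, −0.34, −0.44 and −0.26. Hspb1, a small heat-shock protein, was at −2.43 in neutrophil-like and −2.25 in T cell-like cells. Over days 8 of 11 rose in neutrophil-like cells, with Hspb1 at 0.61 and Hsph1 at 0.56 a day, and none passed in the other classes. In this class 40.8% of all genes passed. With library size alone 9 of 11 rose, where the median slope of all genes was 0.17. Hspb1 was low in these cells, at 0.145 to 57.2 CPM with a median of 2.96 CPM. Hspa1a and Hspa1b were lower in all 4 other classes than in macrophage-like cells, where Hspa1a was at 622 to 1552 CPM. The part of heat-shock or digestion effects in the members' differences was not tested.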

How the data were processed

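The authors deposited 1 table per library of counts of UMIs (unique molecular identifiers) per gene and cell, not normalized. Per the study's methods, fastp cleaned the reads, UMI-tools handled the identifiers and STAR mapped them to mouse genes of Ensembl release 92. The submitters' processing notes list fastp 0.20.1 and the build mm9, while that release uses GRCm38, so coordinates here come from the annotation and not from the files. The methods name BD Rhapsody capture and the series record 10x. Cells were numbered, so barcodes shared between libraries could not be counted. Wound group and day came from the letter and number in each sample title, read with the key that the study gives.

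Barcodes needed more than 200 detected genes and a mitochondrial share below 20%. Scanpy 1.11.5 clustered log counts per 10000 UMIs on 2000 variable genes (10 components, 30 neighbours, Leiden resolution 0.8), leaving out the members, 28 other early response genes and 11 heat-shock genes. A cluster took the name of the marker list with the highest mean log2 fold over the other clusters (20 CPM added, at least 0.25), given at least 3 detected markers. Scrublet marked 0.298% of cells, too few to have worked, and doublets were kept. UMIs were summed per library and class with at least 20 cells.

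Sums were tested with edgeR 4.0.16 (R 4.3.3) by quasi-likelihood F tests with TMM scaling, filterByExpr and Benjamini-Hochberg adjustment at 0.05 over all genes tested, with day as a block for wound group, wound group as a term for the slope over day, and library as a term between classes. For wound group the 4 days stand in for replicates, so p-values measure the spread of the wound difference between days. For the slope they measure the scatter of libraries about the line. Between classes they measure the spread of class differences between libraries. DESeq2 1.42.0 was an alternative, as were library size scaling, no filter, other cell filters, resolution 1.6, clusters made with the members, cells named singly, log2 of day and leaving out each day. The fits were checked on simulated data. A wound difference of 1 log2 unit was called for 40.2% of changed genes in neutrophil-like to 71.1% in macrophage-like cells. In neutrophil-like cells a slope of 0.15 log2 units a day was called for 7.45%, and a slope of 0.30 for 70.5%. Ratios on 1 day carry exact Poisson intervals. All 10 members are given in every comparison between classes and between wound groups over the 4 days, in the latter for some as a range over the classes. They are also named in the slope over day in neutrophil-like cells. Genes of the other lists are named as examples from those past the threshold or with the largest change, and not every gene that passed is named. The genes most like the members are those with the 5 highest correlations. The members and lists were chosen with earlier results of these data known. The result of the fit within 1 cluster is not reported here.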

Additional observations from a re-analysis of the deposited data

How the results depend on the processing

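The day ratios were taken again with cells of at least 500 genes and with cells under 10% mitochondrial UMIs. Of these 400 values, 399 lay within the counting interval of the main ratio. Other ways of making the classes were not applied to the day ratios. For members that did not pass, wound differences changed sign in 77 of 799 settings, slopes in 46 of 662 and class differences in 7 of 120. Between classes, with library size alone Egr1 in neutrophil-like cells was at −0.22 and Jun at −0.49. With cells named singly Atf3 was at 0.32 there and passed as higher (edgeR adjusted p = 0.0245), while with library size alone it passed as lower. Egr1 in neutrophil-like cells passed in 8 of 12 settings and Nr4a1 in dendritic-like cells in 10 of 12. Leaving out 1 day gave 7 to 9 members called in neutrophil-like and 7 to 8 in dendritic-like cells. With library size alone 9 members were called in monocyte-like cells. Diabetic against control, the count of members called went from 0 to 1 with DESeq2 in neutrophil-like and monocyte-like cells and to 2 in macrophage-like cells, to 1, 1, 4 and 1 with no filter in neutrophil-like, monocyte-like, macrophage-like and dendritic-like cells (0.864, 0.932, 1.1 and 0.766% of genes called), to 1 with cells named singly in neutrophil-like cells (0.0543%), to 1 with resolution 1.6 in monocyte-like cells (0.0747%), and to 1 within the cluster led by Ighg2b and Igkc. Leaving out 1 day gave 0 to 1 in macrophage-like cells. With no filter the wound difference between classes was called for 1 member, Egr1 (edgeR adjusted p = 0.0379). No share of all genes is given for that fit. For the slope over day in neutrophil-like cells the 4 members called became 8 with DESeq2 (33.6% of genes), 2 with library size alone (50.8%), 2 with log2 of day (35.8%), 0 with cells named singly (8.79%) and 0 to 8 when 1 day was left out, 0 without day 1, 0 without day 7 and 8 without day 5. Within the clusters led by Ighg2b and Igkc and by Il23a and Il1a it was 1, and the Fosb slope in the latter was −0.014. No share of all genes is given for the fits within clusters. The slope was called in dendritic-like cells for 1 member with DESeq2 (1.47%), 1 with cells named singly (0.517%) and 2 with no filter (2.09%), in macrophage-like cells for 1 with log2 of day (2.55%), and in monocyte-like cells for 0 to 2 when 1 day was left out, 2 without day 3 (4.77%). The median share of cells with a UMI was 69.6% with no thinning and 24.1% at 500 UMIs. The within-cluster fits were added after the data were seen. The cause of these changes was not tested. Day as a block pairs the 2 libraries of a day, and without that block the count of members called for diabetic against control was also 0 in all 5 classes. Class sums below 100 cells limit the day 1 macrophage-like and the control day 7 monocyte-like values.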
